A study of Mus musculus with 2 samples.

Results

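The genes described here are 9 members of the costimulatory machinery of T cells: the receptors Cd28, Cd27 and Tnfrsf9 (4-1BB), the ligands Cd70, Tnfsf9 (4-1BB ligand), Tnfsf4 (OX40 ligand) and Icosl (ICOS ligand), and the pair Cd40 and Cd40lg. They were taken as a list by name, 9 of the 32285 genes in the deposited matrices, and every one was found once in both matrices. Each was summed per library in T cells, macrophages and tumour cells, and Tnfrsf9 was also summed in tumour cells with Car9 UMIs. The study set cells of subcutaneous tumours grown in mice fed a control diet against those of mice fed a diet without serine and glycine, with gene expression and T cell receptor (TCR) libraries made from the same droplets by the 10x Genomics immune profiling assay. There was 1 library per diet, so no difference between the diets has a replicate check. The labels name no mouse strain, sex, age, tumour line, diet duration or number of animals per library, and their extraction text describes human heart septum, whereas the organism, tissue and design fields name mouse tumours.

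A T cell that meets antigen through its receptor needs a second signal to expand and survive. Cd28, which is present on resting T cells, supplies the first of these signals through kinases of the phosphoinositide pathway, and the TNF receptor family members Cd27 and Tnfrsf9 act later or longer through TRAF adaptors and NF-kappaB, with Tnfrsf9 appearing after activation. Their ligands are carried mainly by antigen-presenting cells, and signals also run the other way: Cd40lg on helper T cells engages Cd40 on macrophages, dendritic cells and B cells and licenses them to present antigen.

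T cells were the barcodes with a contig of the TCR beta chain (TRB), 242 on the control and 243 on the serine/glycine-free diet. Those with Cd8a or Cd8b1 UMIs and none of Cd4 were called CD8 (69 and 162 cells), those with Cd4 UMIs and none of the CD8 genes CD4 (55 and 30 cells), and 118 and 51 could not be called. Macrophages (690 and 630 cells) had C1qa, C1qb and C1qc at 0.1% of their UMIs or more and no Krt20. Tumour cells (4115 and 4606 cells) had a Krt20 UMI and none of Ptprc, the CD45 gene of blood cells. UMIs were summed over the cells of a class and divided by the class total, as CPM, counts per 1000000 UMIs. All intervals are exact 95% intervals that cover counting error only, not the spread between animals.

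Each class was set against markers of its named cell type. All 6 T cell markers had UMIs in the CD8 and the CD4 class of both libraries, and all 8 macrophage markers in the macrophages. All of them also had UMIs in tumour cells, so their summed levels are given. T cell markers summed to 2660 and 3093 CPM in CD8 and 1818 and 3189 CPM in CD4 T cells. In tumour cells they summed to 0.636 and 0.607 CPM. Macrophage markers, which include the C1q genes that made the class, summed to 21836 and 24142 CPM in macrophages and 47.9 and 48.7 CPM in tumour cells. The tumour class fitted its name only in part. Krt20, which made the class, stood at 158 and 248 CPM. Krt18 was at 24.1 and 19.6 CPM, with a UMI in 30.7% and 22.4% of cells. It was at 17.0 and 15.4 CPM in cells with neither Krt20 nor Ptprc. Epcam had 1 UMI in the control library and none in the other, and Krt8 was at 0.654 and 0.304 CPM. Vim was near 9405 and 10181 CPM. These cells are therefore tumour cells by the Krt20 rule, with only part of the epithelial list beside it. Some T cell barcodes also carried RNA of other cells. Barcodes with a Krt20 UMI or with C1q at the macrophage cut were 21 of 242 and 31 of 243 T cells, and because they were large they held 34.0% and 44.4% of all T cell UMIs. The macrophage marker list summed to 1366 CPM in control and 315 CPM in serine/glycine-free CD8 T cells, with all 8 markers above 0, and in CD4 T cells to 20.6 and 22.2 CPM with 4 of the 8 at 0, Adgre1, Csf1r and Mrc1 among them in both libraries. The part of this RNA in the results below was not tested beyond leaving those barcodes out. In the serine/glycine-free CD4 class 1 barcode of 94101 UMIs held 41.7% of the UMIs of 30 cells. T cell values are therefore given for all T cells by the rule, and the main ones again without these barcodes. Values with no second figure, such as those by clone, include these barcodes. Median UMIs per cell were 3810 and 8452 in CD8 T cells, 2837 and 3242 in CD4 T cells, 9585 and 10472 in macrophages and 25090 and 23192 in tumour cells. The libraries shared 104 barcode sequences, none of them a T cell in both.

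The members differed in the classes that held them, and receptors and ligands did not separate as groups. Cd28 and Cd27 were found mostly in T cells, which held 76.4% and 75.6% of each library's Cd28 UMIs and 79.6% and 78.2% of its Cd27 UMIs. The other Ptprc-positive cells held 15.97% and 18.9% of the Cd28 and 12.04% and 19.7% of the Cd27 UMIs. In macrophages Cd28 had 3 and 2 UMIs and Cd27 none, where 3 counts would make 0.416 and 0.427 CPM. Cd40 showed the opposite arrangement, with 61.6 (56.0 to 67.6) and 95.6 (88.5 to 103) CPM in macrophages, 0.276 and 0.147 CPM in tumour cells, 2 UMIs in CD8 T cells of each library and none in CD4 T cells. Cd40lg was confined among these 4 classes to the T cells. Tnfsf9 was the ligand with the flattest distribution: it lay between 23.8 and 53.3 CPM in all 4 classes of both libraries. Without the T cell barcodes that held Krt20 or C1q, its CD8 level was 11.9 CPM from 4 control UMIs and 25.8 CPM from 28 serine/glycine-free UMIs. Its CD4 level was then 48.9 and 68.7 CPM.

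Among these 4 classes Tnfrsf9 had the highest summed level in CD4 T cells, then CD8 T cells, tumour cells and macrophages, in both libraries. The T cells that could not be called had 489 and 559 CPM. It stood at 409 (351 to 473) CPM in control and 622 (523 to 734) CPM in serine/glycine-free CD4 T cells, and at 252 (208 to 301) and 572 (539 to 608) CPM in CD8 T cells. The CD4 level was 1.63-fold (1.28 to 2.07) the CD8 level in the control library, whereas the interval of the same ratio held 1 in the other (1.09, 0.904 to 1.30). In tumour cells Tnfrsf9 was at 59.9 (58.5 to 61.4) and 101 (99.6 to 103) CPM, and in macrophages at 11.1 (8.80 to 13.8) and 25.5 (21.9 to 29.5) CPM. Because tumour cells were so many, they held 58.6% and 63.1% of each library's Tnfrsf9 UMIs, against 5.66% and 7.75% in T cells.

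Cd70 and Tnfsf4 were scarce. Cd70, the ligand of Cd27, had 7 control and 8 serine/glycine-free UMIs in all T cells, 6 and 0 in the other Ptprc-positive cells, none in macrophages, and 0 and 1 in tumour cells. Tnfsf4, the ligand of the OX40 receptor, had 9 and 15 UMIs in T cells and 5 and 10 in other Ptprc-positive cells, with 0 and 1 in macrophages and none in 4115 and 4606 tumour cells. Both genes had too few UMIs for a comparison of diets. In the T cell classes the intervals reached up to 18.5 (control CD8) and 32.1 CPM (serine/glycine-free CD4) for Cd70, and 21.7 and 16.4 CPM in the same classes for Tnfsf4. Icosl, which engages Icos on activated T cells, was at 8.33 (6.35 to 10.7) and 11.4 (9.02 to 14.2) CPM in macrophages, which held 46.9% and 50% of its UMIs.

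**Figure D1:**
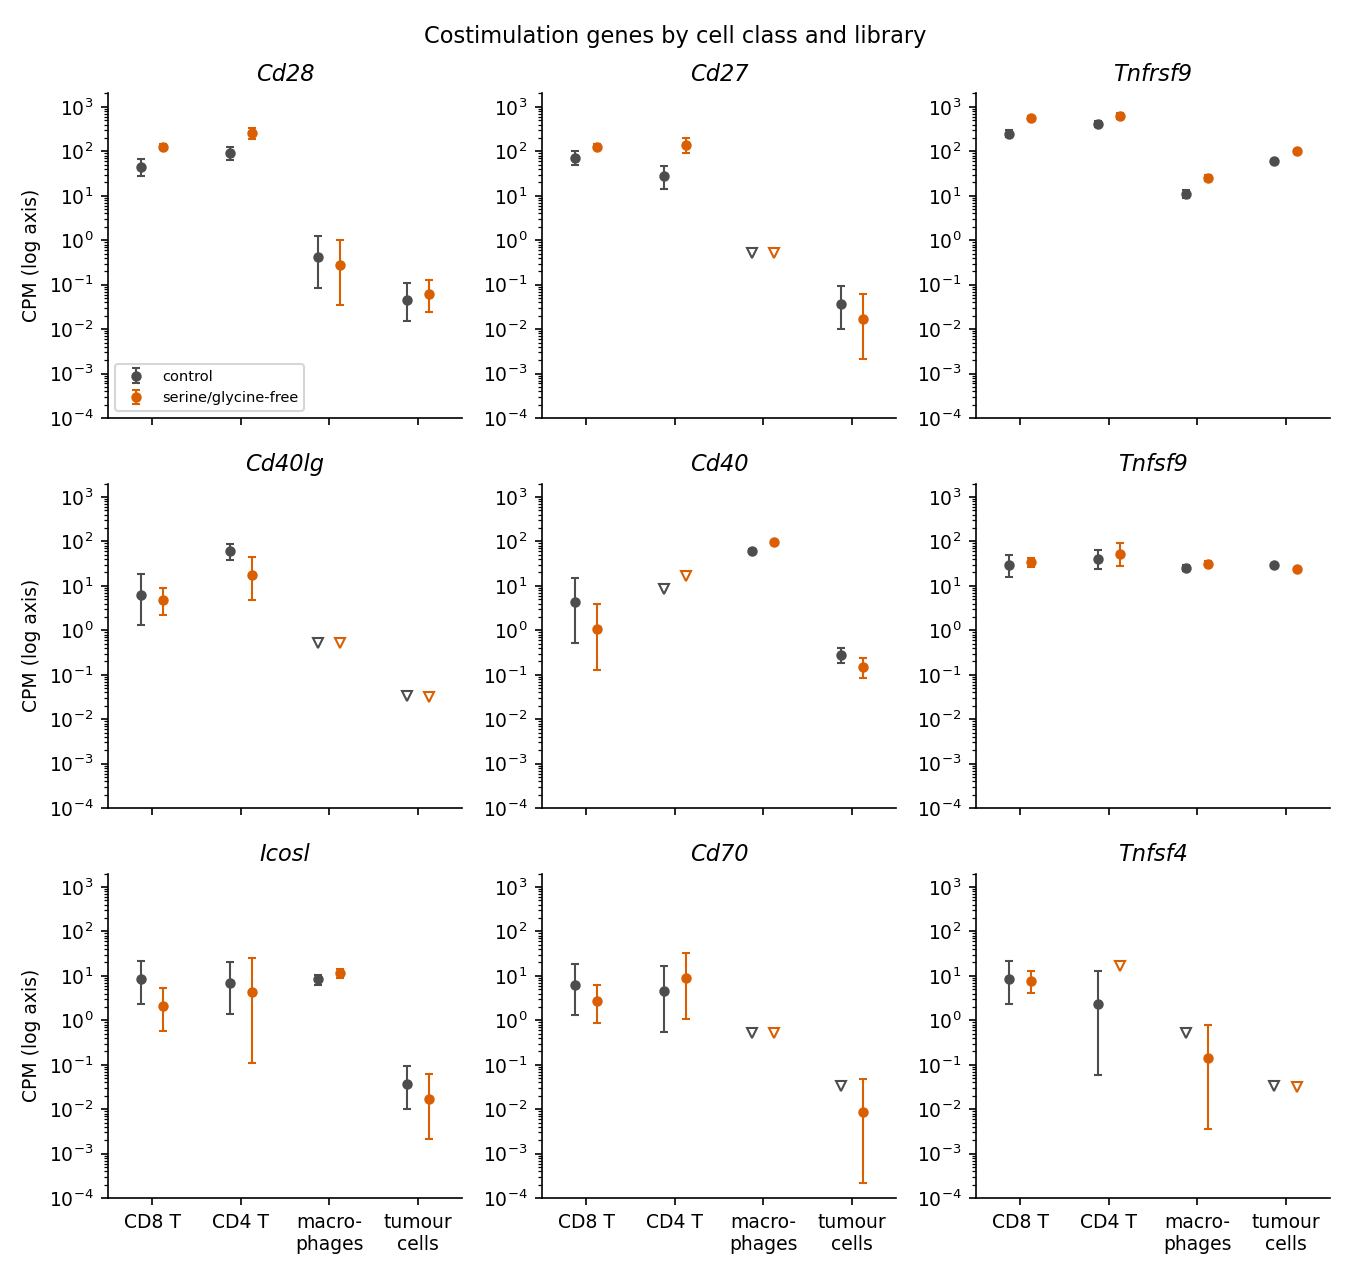
Level of each member in CPM (log axis) by cell class in the control (grey) and serine/glycine-free (orange) library, 1 library per diet. Points are summed UMIs with exact 95% Poisson intervals, and open triangles mark the upper interval limit where no UMI was found. Cd28, Cd27 and Cd40lg lie high in T cells, Cd40 in macrophages, and Tnfrsf9 and Tnfsf9 in every class.

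The first question was how the costimulatory receptors of tumour-infiltrating CD8 T cells compared between the diets. A gene was compared if 1 library had at least 30 UMIs in the class, and was called past the fold if its log2 ratio of CPM + 5 was 1 or more in size. Of the 6634 genes compared in CD8 T cells, 5.19% were past the fold in either direction and 3.57% were higher. Of the 9 members 4 reached 30 UMIs, and 2 of these, Cd28 and Tnfrsf9, were past the fold, both on the side of the serine/glycine-free library. The median log2 ratio of the 4 was 0.97, against -0.0030 over all genes compared. Both counts are small, so the share of members past the fold is given as a description.

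Cd28 had 21 UMIs, 44.4 CPM (27.5 to 67.9), in the 69 control CD8 T cells and 240 UMIs, 128 CPM (113 to 146), in the 162 serine/glycine-free cells. The ratio was 2.89 (1.85 to 4.75). Without the barcodes that held Krt20 or C1q the levels were 62.3 and 201 CPM and the ratio 3.22 (2.05 to 5.30). After each cell was thinned to 1000 UMIs, so that every cell weighed the same, only 10 and 25 Cd28 UMIs were left and the ratio was 1.02 (0.471 to 2.37). The share of thinned cells with a Cd28 UMI was 9.23% (3.46 to 19.0) of 65 control and 15.6% (10.4 to 22.2) of 160 serine/glycine-free cells, intervals that overlap, and it was 0% in tumour cells. The Cd28 difference was therefore seen in the summed UMIs, in which the deeper cells count more, and was not detectable at equal depth.

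Tnfrsf9, the receptor that marks recently activated CD8 T cells, had 119 control and 1071 serine/glycine-free UMIs. Its ratio of 2.28 (1.88 to 2.77) became 2.36 (1.94 to 2.90) without the barcodes holding Krt20 or C1q and 2.37 (1.45 to 4.09) after thinning. Thinned cells with a Tnfrsf9 UMI were 18.5% (9.92 to 30.03) of control and 41.2% (33.5 to 49.3) of serine/glycine-free cells, intervals that do not overlap, and 44.9% and 85.8% before thinning. The same thinned share was 5.81% and 8.82% in tumour cells and 0.752% and 2.12% in macrophages, and that of Krt20, a gene T cells should lack, was 0% of 65 control and 1.88% of 160 serine/glycine-free CD8 T cells.

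The weight given to clones changed this ratio. When each TRB chain counted once, as the mean of 54 control and 35 serine/glycine-free chains, Tnfrsf9 stood at 312 and 340 CPM, a log2 ratio of 0.12 in place of 1.17. The median chain had 32.3 and 326 CPM, and a Tnfrsf9 UMI was found in 28 of the 54 and 23 of the 35 chains. Without the largest chain of each library, the log2 ratio was 0.97, just under the fold. The largest serine/glycine-free chain was carried by 58 of the 162 CD8 T cells and the largest control chain by 4 of 69. Cd28 stayed past the fold under both of these settings. Its mean over chains was 86.3 and 197 CPM, its median 0 and 107 CPM, and 16 of the 54 and 21 of the 35 chains had a UMI. The mean of Cd27 over chains was 89.6 and 112 CPM.

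Cd27, the receptor for Cd70 that sustains survival after priming, had 34 and 236 UMIs in CD8 T cells, 71.9 (49.8 to 100.5) and 126 (111 to 143) CPM. Its ratio of 1.75 (1.22 to 2.59) was short of the fold, was 2.0 (1.38 to 3.01) without barcodes holding Krt20 or C1q, and was 0.948 (0.416 to 2.35) after thinning, from 9 and 21 UMIs. Tnfsf9 was measured in CD8 T cells at 29.6 (16.2 to 49.7) and 33.7 (25.9 to 43.1) CPM, with a ratio of 1.14 (0.63 to 2.2) that does not separate the libraries. Without the barcodes holding Krt20 or C1q, only 4 of its 14 control and 28 of its 63 serine/glycine-free UMIs were left. The ratio was then 2.17 (0.759 to 8.51), an interval that also holds 1. Among the 69 control CD8 T cells 5 had UMIs of all of Tnfrsf9, Cd27 and Cd28 and 26 had none of the 3, and among the 162 serine/glycine-free cells 70 had all and 10 had none. These last counts were not thinned, and the serine/glycine-free CD8 T cells were the deeper ones.

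**Figure D2:**
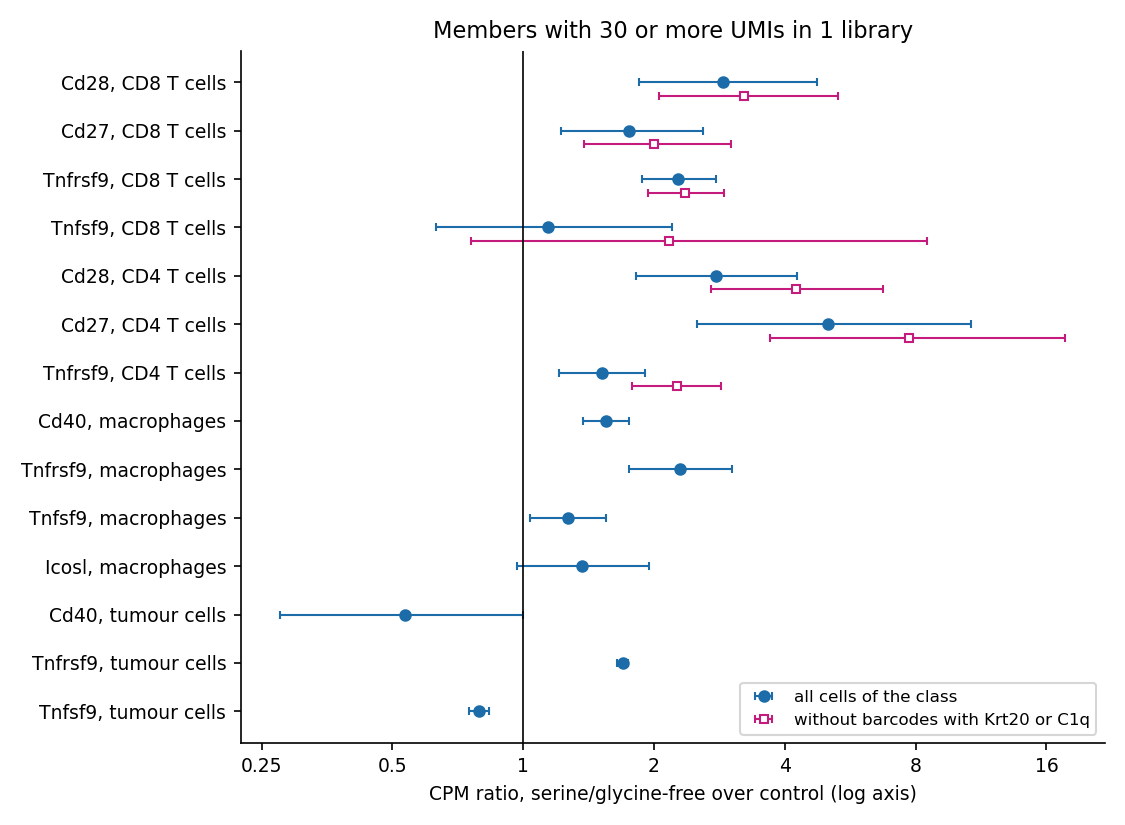
Ratio of CPM, serine/glycine-free over control (log axis), for every member with at least 30 UMIs in 1 library, by class, with exact 95% intervals for counting error. Filled circles are all cells of the class and open squares the T cells left after removing barcodes with Krt20 or C1q. In T cells the ratios of Cd28, Cd27 and Tnfrsf9 lie above 1, and Tnfsf9 lies above 1 in macrophages and below 1 in tumour cells.

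Within CD8 T cells, Tnfrsf9 was higher in cells with a UMI of Pdcd1, the gene of the inhibitory receptor PD-1. The 21 control cells with Pdcd1 had 497 CPM of Tnfrsf9 and the 48 without it 173 CPM, which makes 2.88-fold (1.97 to 4.19). The 139 serine/glycine-free cells with Pdcd1 had 615 CPM and the 23 without it 217 CPM, or 2.84-fold (2.09 to 3.95). The ratios were 2.27 (1.55 to 3.34) and 2.34 (1.54 to 3.76) without barcodes holding Krt20 or C1q. After thinning, 14.3% of control cells with Pdcd1 and 20.5% of those without had a Tnfrsf9 UMI, while the serine/glycine-free shares were 43.5% and 27.3%. These shares rest on no more than 21 control cells with Pdcd1 and 23 serine/glycine-free cells without it. They have no interval, so they do not settle the order at equal depth. Whether a Pdcd1 UMI is seen depends on depth, and the serine/glycine-free cells with Pdcd1 had a median of 9230 UMIs against 3986 in the control.

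Cd27 had ratios of 2.47 (1.17 to 5.13) and 2.04 (1.17 to 3.88) between the same cells, which fell within counting error of 1 without the barcodes holding Krt20 or C1q, at 1.77 (0.814 to 3.76) and 1.34 (0.691 to 2.97). Cd28 showed no difference by Pdcd1 beyond counting error in either library, at 1.25 (0.398 to 3.41) and 1.56 (0.951 to 2.72). Between diets, the Tnfrsf9 ratio of 2.28 was 1.24 (0.946 to 1.64) among CD8 T cells with Pdcd1 and 1.25 (0.828 to 1.88) among those without it. Without the barcodes holding Krt20 or C1q, cells with Pdcd1 had 554 (420 to 718) and 827 (772 to 884) CPM of Tnfrsf9, a ratio of 1.49 (1.14 to 1.99) whose interval leaves out 1, while cells without Pdcd1 had 244 and 353 CPM, a ratio of 1.45 (0.843 to 2.41). Whether Tnfrsf9 differed between diets beyond counting error at the same Pdcd1 status thus turned on those barcodes. Among the cells that had Pdcd1, Cd27 was at 131 and 133 CPM, a ratio of 1.02 (0.604 to 1.85), or 1.42 (0.827 to 2.65) without the same barcodes. Cd28 was at 52.4 and 133 CPM there, a ratio of 2.55 (1.15 to 7.01), or 3.43 (1.55 to 9.46) without them.

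By clone, over all barcodes of the rule, Tnfrsf9 differed beyond counting error in the serine/glycine-free library, while Cd27 and Cd28 did not. Among serine/glycine-free CD8 T cells Tnfrsf9 was at 725 CPM in the largest clone, 504 CPM in the 81 cells of other repeated chains and 459 CPM in the 23 cells whose chain was seen once. The largest clone was 1.44-fold (1.27 to 1.63) over the other repeated chains, and those were within counting error of the chains seen once (1.10, 0.853 to 1.43). Cd27 stood at 131, 123 and 133 CPM and Cd28 at 133, 121 and 166 CPM in the same 3 groups, and the largest clone over the other repeated chains was 1.07 (0.80 to 1.42) for Cd27 and 1.10 (0.823 to 1.46) for Cd28. In the control library the largest clone had 4 CD8 T cells and 4 Tnfrsf9 UMIs, too few to place it. Barcodes holding Krt20 or C1q had 41.8% of all UMIs and 18.9% of the Tnfrsf9 UMIs of serine/glycine-free CD8 T cells. Their part in the values by clone, and that of depth, was not tested.

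In CD4 T cells, 7.74% of 2222 genes were past the fold, 2.03% of them higher and 5.72% lower on the serine/glycine-free side. Of the 3 members with 30 UMIs, Cd28 and Cd27 were past the fold and higher, and Tnfrsf9 was short of it. Without the barcodes holding Krt20 or C1q, which takes the 94101-UMI barcode out of the serine/glycine-free class, 19.2% of 1606 genes were past the fold, 114 higher and 195 lower. All 3 members were past it and higher. The members' count in those cells is read against the 114 of 1606 genes that were higher.

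Cd28 had 40 UMIs in 55 control and 57 in 30 serine/glycine-free CD4 T cells, 91.4 (65.3 to 124) and 253 (192 to 328) CPM, a ratio of 2.77 (1.82 to 4.26). Without the barcodes holding Krt20 or C1q that ratio was 4.24 (2.71 to 6.72). The thinned ratio was 2.83 (1.25 to 6.68), and 15.1% and 44.8% of thinned cells had a Cd28 UMI. Cd27 had 12 and 31 UMIs, 27.4 (14.2 to 47.9) and 138 (93.6 to 195) CPM, a ratio of 5.02 (2.51 to 10.7). Without the same barcodes the Cd27 ratio was 7.74 (3.70 to 17.7). In the thinned sums 3 and 5 Cd27 UMIs were left, a ratio of 3.05 (0.593 to 19.6), and in the separate draw behind the thinned shares 3.77% (0.46 to 12.98) and 20.7% (7.99 to 39.7) of cells had a Cd27 UMI, intervals that overlap. Tnfrsf9 had 179 and 140 UMIs and a ratio of 1.52 (1.21 to 1.91), which was 2.25 (1.78 to 2.85) without the barcodes holding Krt20 or C1q and 0.778 (0.437 to 1.34) after thinning. Its direction between diets in CD4 T cells thus depended on how cells were weighted. Beside these ratios, the 6 T cell markers of the CD4 class summed to 1818 and 3189 CPM, with Cd3e at 468 and 906 CPM, and the 4 fibroblast markers to 605 and 107 CPM, and their part in the results was not tested.

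Tnfrsf9 and Cd27 were higher in the CD4 T cells with a UMI of Foxp3, the transcription factor of regulatory T cells. The 11 control cells with Foxp3 had 950 CPM of Tnfrsf9 and the 44 without it 212 CPM, a ratio of 4.49 (3.29 to 6.16), or 4.82 (3.46 to 6.75) without barcodes holding Krt20 or C1q. The 10 serine/glycine-free cells with Foxp3 had 1965 CPM and the 20 without it 321 CPM, a ratio of 6.13 (4.33 to 8.72), or 2.99 (2.11 to 4.26) without the 1 large barcode. In summed UMIs Tnfrsf9 was therefore higher with Foxp3 in both libraries under both sets of cells. Thinned cells with a Tnfrsf9 UMI were 54.5% against 26.2% in the control and 44.4% against 30% in the other library. These shares rest on no more than 11 and 10 cells with Foxp3 and have no interval, so they do not settle the order at equal depth.

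Cd27 followed the same order. In the control library 10 of the 12 Cd27 UMIs lay in the 11 cells with Foxp3, 85.6 against 6.23 CPM, a ratio of 13.7 that was 13.2 (2.63 to 128) without barcodes holding Krt20 or C1q. The serine/glycine-free levels were 509 and 54.4 CPM, a ratio of 9.37 (4.22 to 22.3), or 4.58 (2.06 to 10.9) without the large barcode. Cd28 was not ordered by Foxp3 in the control library (0.583, 0.218 to 1.34), and in the other its ratio of 2.41 (1.33 to 4.26) was 1.21 (0.664 to 2.15) without that barcode.

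**Figure D3:**
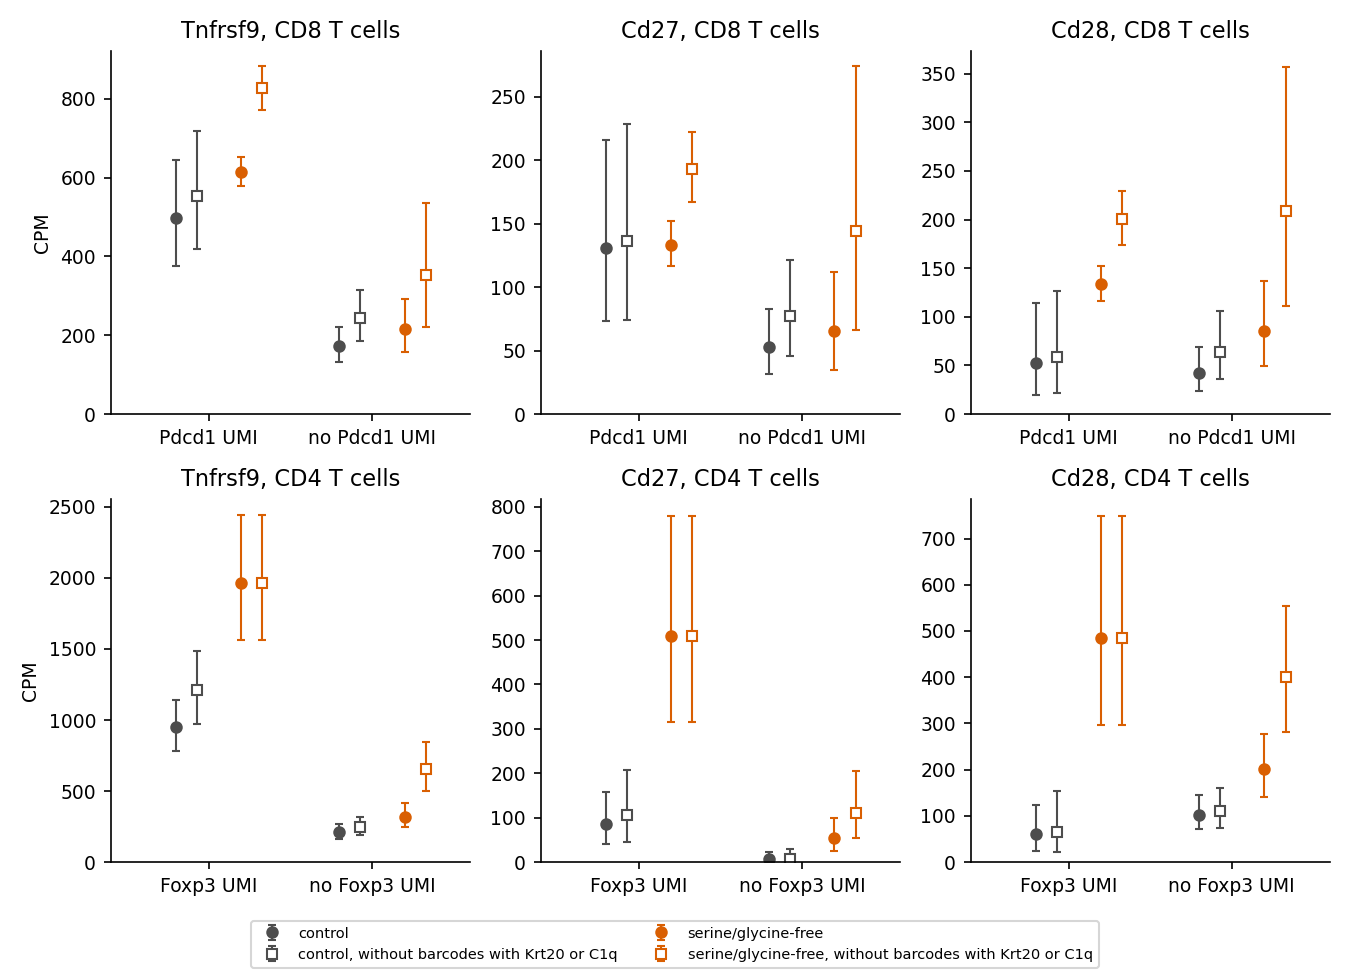
Level in CPM of Tnfrsf9, Cd27 and Cd28 in CD8 T cells with and without a Pdcd1 UMI (top) and CD4 T cells with and without a Foxp3 UMI (bottom), in the control (grey) and serine/glycine-free (orange) library. Circles are all cells, open squares those left without barcodes holding Krt20 or C1q, and bars exact 95% Poisson intervals. Among the groups shown, the Tnfrsf9 level is highest in CD4 T cells with Foxp3, at 950 and 1965 CPM.

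Cd40lg went the other way. This helper T cell ligand had 26 UMIs in 55 control CD4 T cells and 4 in 30 serine/glycine-free ones, 59.4 (38.8 to 87.0) and 17.8 (4.84 to 45.5) CPM, and all of these UMIs were in cells without Foxp3. The class fell short of 30 UMIs, so Cd40lg was not among the genes compared there. Its ratio of 0.299 (0.0759 to 0.862) became 0.416 (0.105 to 1.21) without barcodes holding Krt20 or C1q, an interval that holds 1.

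Over all T cells, where 3.15% of 7723 genes were past the fold and 1.54% were lower, Cd40lg was past it and lower, with 55 control UMIs (34.7 CPM) and 19 serine/glycine-free UMIs (7.6 CPM). That ratio was 0.219 (0.123 to 0.375), 0.260 (0.143 to 0.452) without barcodes holding Krt20 or C1q, and 0.168 (0.0422 to 0.492) after thinning. The all-T-cell value carries the makeup of the class, since CD4 T cells were 55 of 242 control and 30 of 243 serine/glycine-free T cells. Cd40lg was at 38.6 and 14.9 CPM in the T cells that could not be called (0.386, 0.130 to 0.959) and at 6.34 and 4.81 CPM in CD8 T cells. Cd27 was the other member past the fold over all T cells, higher at 2.25-fold (1.76 to 2.89), where 1.61% of genes were past it on that side. After thinning, the Cd27 ratio was 1.66 (0.992 to 2.84).

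Other genes of the pathway were read from lists named for their role. Of 10 further costimulatory receptors 7 were compared in CD8 T cells, and 2 were past the fold, both higher, where 3.57% of all genes were. These were Icos, the CD28-family receptor for Icosl, at 44.4 and 97.8 CPM (2.2, 1.40 to 3.64), and Tnfrsf4, the OX40 receptor, at 67.7 and 164 CPM (2.43, 1.68 to 3.61). Without barcodes holding Krt20 or C1q their ratios were 2.71 (1.68 to 4.61) and 2.73 (1.89 to 4.07). The list's median log2 ratio was 0.014. Of 25 signalling genes 24 were compared in CD8 T cells and 2 were past the fold and higher, where 3.57% of all genes were. With counts this small the shares are descriptions. The 2 were Bcl2a1d, a survival gene of the BCL2 family and an NF-kappaB target, at 3.41-fold (2.36 to 5.08), and Pik3r1, the regulatory subunit of the kinase that Cd28 recruits, at 3.03-fold (1.94 to 4.99). None of 3 compared ligands or 9 other TNF family genes was past the fold.

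In CD4 T cells none of 4 compared receptors was past the fold, while 5 of 9 compared signalling genes were, all higher, where 2.03% of all genes were. The median of the signalling list was 1.07 against -0.023 over all genes. The 4 with the largest ratios were Bcl2a1d (2.86), Bcl2a1b (2.53), Nfkb1 (2.30), a subunit of NF-kappaB, and Nfkbia (2.19), its inhibitor and target. The near-identical Bcl2a1 copies can share reads, so the split of UMIs between them is uncertain. Tnfrsf12a, the receptor of the TWEAK ligand, was lower, at 370 and 120 CPM (0.324, 0.207 to 0.489). All of the Tnfrsf12a UMIs of the serine/glycine-free class lay in the 1 barcode that also held Krt20, since without it the level there was 0 against 394 CPM in the control class. Without barcodes holding Krt20 or C1q, 3 of 21 signalling genes in CD8 T cells were past the fold and higher, where 252 of all 4643 genes were, and 5 of 8 in CD4 T cells, where 114 of 1606 were. In the same cells 1 of 4 receptors was past the fold and higher in CD4 T cells, Cd2, the adhesion receptor of T cells, at 275 and 755 CPM (2.75, 2.04 to 3.69). Lower there were 2 of 4 other TNF family genes, Tnfrsf12a and Tnfrsf1a, a receptor of TNF, at 91.7 and 15.3 CPM, where 195 of 1606 genes were lower. Of 6 such genes in CD8 T cells 1 was lower, Tnfrsf12a, at 92.0 and 14.7 CPM (0.16, 0.0817 to 0.301), where 104 of 4643 were.

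Tnfrsf9 was also measured where it is less often looked for, in the tumour cells, and here its level moved with Car9. Car9 encodes carbonic anhydrase IX, a cell-surface enzyme widely used as a marker of hypoxia. In the control library Tnfrsf9 was at 45.4 CPM in the 3483 tumour cells with no Car9 UMI, 96.6 CPM in 299 with 1 UMI, 138 CPM in 244 with 2 to 4 and 252 CPM in 89 with 5 or more. On the serine/glycine-free diet the same groups of 3391, 349, 477 and 389 cells had 63.1, 116, 183 and 244 CPM. The level was higher at every step in both libraries, and at 5 or more Car9 UMIs the intervals of the libraries overlapped.

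Cells with at least 2 Car9 UMIs had 168 against 45.4 CPM in the control, or 3.69-fold (3.48 to 3.91), and 211 against 63.1 CPM on the serine/glycine-free diet, or 3.35-fold (3.22 to 3.48). Of the 13502 and 13541 genes compared over this split, 0.252% and 0.266% were past the fold and higher, Tnfrsf9 among them. Only 5 genes had a larger log2 ratio in the control split and 3 in the serine/glycine-free one, counting Car9 itself, which made the split. The others were Ankrd37, Ero1l, Bnip3 and P4ha2 in the control library and Ero1l and Ankrd37 in the other. Ero1l serves protein oxidation in the endoplasmic reticulum, P4ha2 collagen hydroxylation and Bnip3 mitophagy, and all are known targets of hypoxia.

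Depth was nearly level in the control library, with median UMIs of 25038, 25202, 25478 and 26143 in order of Car9. The serine/glycine-free medians were 21428, 26342, 26428 and 29095. Within the cells of middle depth, the central 1 of 3 equal parts by UMIs, the ratios were 3.83 (3.47 to 4.23) and 3.64 (3.42 to 3.86), and after thinning 3.56 and 3.57. Thinned cells with a Tnfrsf9 UMI were 4.31%, 10.7%, 13.1% and 28.1% of control and 5.75%, 9.17%, 16.8% and 25.4% of serine/glycine-free cells by Car9 group. With Ptprc, C1qa, C1qb, C1qc and Cd3e all at 0, which leaves out barcodes with those immune UMIs, the ratios were 3.71 and 3.39. The pattern was not limited to cells with Krt20. In cells with neither Krt20 nor Ptprc UMIs the same ratio was 4.45 (4.10 to 4.82) on the control and 3.49 (3.27 to 3.73) on the serine/glycine-free diet.

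A list of 10 hypoxia genes read beside it had 6 members past the fold and higher in the control split and 5 in the serine/glycine-free one. Their log2 ratios ran from -0.12 to 2.18 and from -0.071 to 1.89, so Tnfrsf9, at 1.78 and 1.67, lay inside that range near its top. Its ligand Tnfsf9 moved less over the same cells, at 28.4 and 36.5 CPM in control (1.29, 1.15 to 1.44) and 22.4 and 26.6 CPM in serine/glycine-free tumour cells (1.19, 1.09 to 1.30). No other member had 30 UMIs in cells with Car9.

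**Figure D4:**
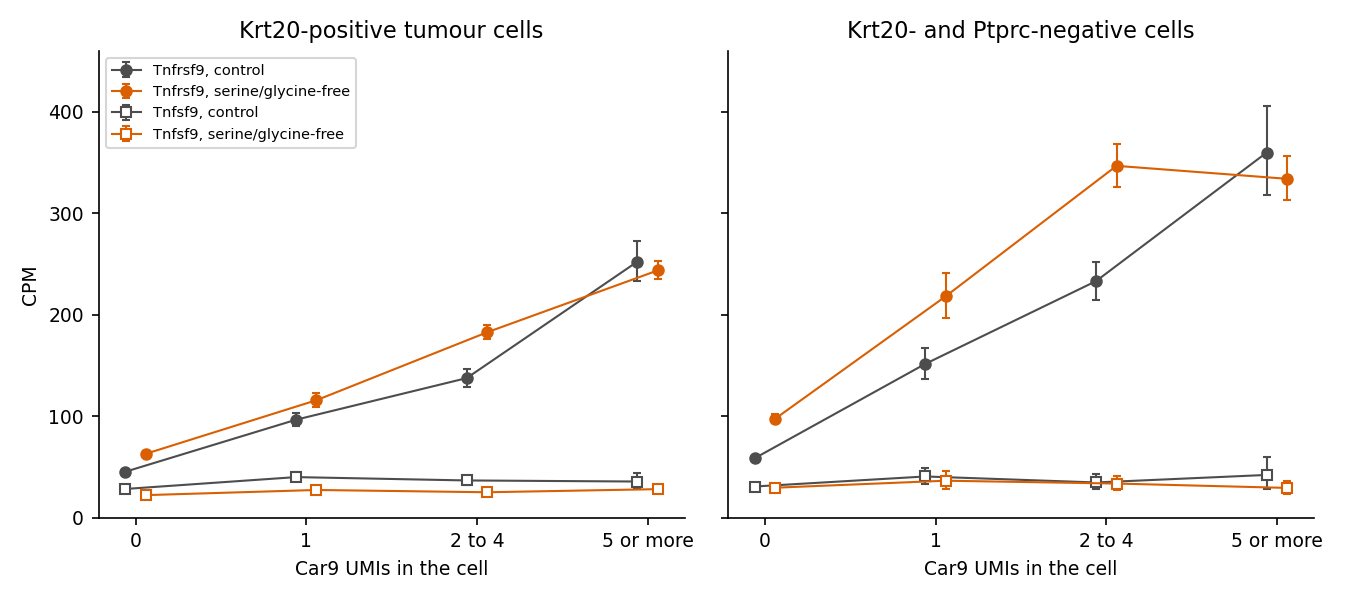
Level in CPM of Tnfrsf9 (filled circles) and Tnfsf9 (open squares) by the number of Car9 UMIs in a cell, in Krt20-positive tumour cells (left) and in cells with neither Krt20 nor Ptprc (right), for the control (grey) and serine/glycine-free (orange) library with exact 95% Poisson intervals. In tumour cells Tnfrsf9 climbs from 45.4 to 252 and from 63.1 to 244 CPM, while Tnfsf9 stays between 22.4 and 40.1 CPM.

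RefSeq promoter windows on GRCm38.p6 were at hand for 3 of the 9 members, Tnfrsf9, Cd27 and Icosl. The 2 start sites of Tnfrsf9 (ENSMUSG00000028965, chr4:150920155-150946104, plus strand) are shown because its level followed Car9 in tumour cells. Each line gives the 250 bases before a start site on the plus strand, the upstream start at chr4:150919905-150920154 and the downstream start, inside the gene's span, at chr4:150927749-150927998, with matches of a general NF-kappaB pattern, GGG then any 5 bases then CC on either strand, in capitals.
Tnfrsf9 upstream start: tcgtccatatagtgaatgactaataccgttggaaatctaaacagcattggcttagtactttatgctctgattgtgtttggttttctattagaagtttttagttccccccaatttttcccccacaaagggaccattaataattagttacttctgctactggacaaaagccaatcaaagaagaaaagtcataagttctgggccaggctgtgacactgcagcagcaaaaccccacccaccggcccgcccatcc
Tnfrsf9 downstream start: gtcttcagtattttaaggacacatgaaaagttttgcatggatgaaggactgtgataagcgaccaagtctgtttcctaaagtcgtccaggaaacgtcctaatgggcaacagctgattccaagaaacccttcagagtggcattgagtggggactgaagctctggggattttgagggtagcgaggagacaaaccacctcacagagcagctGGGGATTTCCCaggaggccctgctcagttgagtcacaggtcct
The downstream window held overlapping matches of this pattern 42 to 43 bases before the start site, and the upstream window none. The core letters of the hypoxia response element, ACGTG and GCGTG, were searched on both strands and found in neither window. Over the same 250 bases of all 32851 RefSeq windows, the NF-kappaB pattern was found in 45.8%, ACGTG in 16.6% and GCGTG in 28.2%. A match describes the letters only, and these windows do not cover more distant elements.

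Between diets, 0.336% of 14267 genes were past the fold in tumour cells, and none of the 3 members with 30 UMIs was. Tnfrsf9, with 6501 and 11691 UMIs, was 1.69-fold (1.64 to 1.74) higher on the serine/glycine-free diet. In that library 18.8% (17.7 to 20.0) of tumour cells had 2 or more Car9 UMIs, against 8.09% (7.28 to 8.97) in the control. With the control library's levels in each Car9 group and the other library's mix of groups, the Tnfrsf9 level came to 83.0 CPM, and with the serine/glycine-free levels and the control mix to 78.9 CPM, both between the measured 59.9 and 101 CPM. Of the signalling genes 2 of 21 compared were past the fold in tumour cells, both higher: Nfkbia at 255 and 631 CPM (2.48, 2.44 to 2.51) and Bcl2l1, which encodes the survival protein BCL-XL, at 46.2 and 109 CPM (2.35, 2.28 to 2.43).

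Tnfsf9 was lower in serine/glycine-free tumour cells, at 30.03 (29.0 to 31.1) and 23.8 (22.9 to 24.7) CPM, a ratio of 0.792 (0.752 to 0.833). In cells with neither Krt20 nor Ptprc it was 32.0 and 30.6 CPM, a ratio of 0.957 (0.874 to 1.05). Tumour cells held 66.9% and 68.5% of each library's Tnfsf9 UMIs. Cd40 in tumour cells rested on 30 and 17 UMIs in 4115 and 4606 cells, and its ratio of 0.533 (0.276 to 0.999) is that of a gene near its floor.

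In macrophages 0.895% of 10057 genes were past the fold, and none of the 4 members with 30 UMIs was, although all 4 were on its higher, serine/glycine-free side, with a median log2 ratio of 0.45 against -0.097 over all genes. Cd40, through which T cells license macrophages, had 444 and 672 UMIs and a ratio of 1.55 (1.37 to 1.75). Thinned cells with a Cd40 UMI were 6.02% (4.33 to 8.10) and 8.33% (6.27 to 10.8), with overlapping intervals. Tnfsf9 was at 24.98 (21.5 to 28.9) and 31.7 (27.7 to 36.2) CPM, a ratio of 1.27 (1.04 to 1.55) that was 1.03 (0.509 to 2.07) after thinning. Icosl had 60 and 80 UMIs and a ratio of 1.37 (0.966 to 1.94), which holds 1.

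Tnfrsf9 in macrophages, at 80 UMIs in 33 of 690 cells and 179 in 53 of 630, had a ratio of 2.29 (1.75 to 3.02). Its log2 ratio of CPM + 5 was 0.92, under the fold by a small margin, and it was past the fold under 4 alternatives, such as a pseudocount of 1 CPM (1.13). With Cd3e at 0 as well as Krt20, which leaves out macrophages with T cell UMIs, the log2 ratio was 0.88. The part of free tumour-cell RNA in these few cells was not tested.

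Cd40 followed the share of class II antigen-presentation genes (H2-Aa, H2-Ab1, H2-Eb1 and Cd74) in a macrophage. Macrophages above the median share, taken over both libraries, had 79.7 (control) and 106 CPM (serine/glycine-free) of Cd40, and those at or below it 54.7 and 75.2 CPM. The ratios within a library were 1.46 (1.19 to 1.77) and 1.40 (1.18 to 1.68). Cells above the median were 222 of 690 in the control and 438 of 630 in the other. Within the cells above it the diet ratio of Cd40 was 1.32 (1.11 to 1.59) and within those at or below it 1.37 (1.13 to 1.67), so the difference between libraries was present on both sides of the split. Icosl was 1.41-fold (0.785 to 2.45) and 1.46-fold (0.868 to 2.56) higher above the median, within counting error, as was Tnfsf9. Tnfrsf9 was higher above the median in the serine/glycine-free library, at 1.81-fold (1.25 to 2.66), and at 1.12-fold (0.663 to 1.83) in the control.

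**Figure D5:**
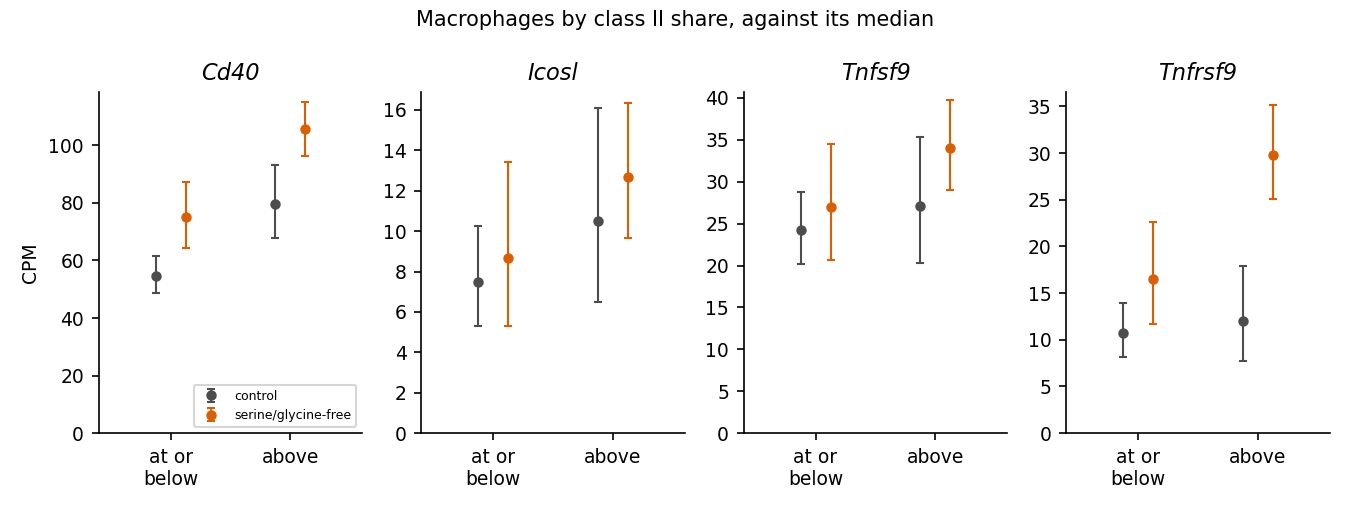
Level in CPM of Cd40, Icosl, Tnfsf9 and Tnfrsf9 in macrophages at or below and above the median share of class II UMIs, in the control (grey) and serine/glycine-free (orange) library, with exact 95% Poisson intervals. Cd40 is higher above the median in both libraries, 79.7 against 54.7 and 106 against 75.2 CPM.

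The remaining Ptprc-positive cells, 392 and 361, which had no TRB contig and too little C1q to be called macrophages, held 34.8% and 11.6% of the Cd40 and 24.2% and 22.5% of the Icosl UMIs. A separate class of 74 and 139 cells with both Krt20 and Ptprc held 5.83% and 6.69% of the Cd40 and 2.34% and 16.2% of the Icosl UMIs. Among the remaining Ptprc-positive cells 5.28% of 8216 genes were past the fold between diets, and 3 of the 6 members compared were: Cd28 (9.54 and 33.0 CPM) and Cd27 (5.39 and 29.5 CPM) were higher, where 3.18% of genes were, and Cd40 was lower, where 2.11% were, at 129 (115 to 144) and 39.1 (31.9 to 47.5) CPM. The class differed in makeup, whose part in these values was not tested: cells with a UMI of Ncr1, a receptor of natural killer cells, numbered 15 of 392 on the control diet and 122 of 361 on the other. Those Ncr1 cells had 1482 and 543 CPM of Tnfrsf9, 79.1 and 75.2 CPM of Cd28, 16.7 and 72.0 CPM of Cd27 and no Cd40 UMI. Cd40 reached 1354 CPM in 6 control cells with both Ccr7 and Fscn1, genes of migratory dendritic cells, and only 1 such cell was found in the other library. The splits by Ncr1 and by Ccr7 with Fscn1 were chosen after the values were seen.

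Genes with the most similar pattern were sought by the Pearson correlation of log2 of CPM + 5 over 14 points, 7 cell classes in each of the 2 libraries, among 4784 genes. For Cd28 these were Zap70, Ctla4 and Tnfrsf18 (0.99 each), for Cd27 Rbl2, Tox and Zap70 (0.98 to 0.99), and for Cd40 Slc8a1, Ptpro and Nlrp3 (0.99 to 0.996). Tnfrsf9 was matched less closely, by Bhlhe40 (0.95), Rabgap1l (0.93) and Fam107b (0.92), and Icosl by Lilrb4a, Ikbkb and Xylt1 (0.94 to 0.95). Tnfsf9, flat across classes, had its nearest genes in Htatip2 (0.83), Ncbp1 (0.81) and Sf3a2 (0.79). The 14 points share libraries and differ in depth, and the correlations are descriptions.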

How the data were processed

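The deposited files were UMI count matrices, whole-number counts per gene and cell barcode, with tables of TCR contigs. Per the file headers the authors made the counts with Cell Ranger 7.1.0, whereas the submitters' processing notes name 2.2.2 and the mouse build mm10. Barcodes with fewer than 300 genes or over 20% mitochondrial UMIs were left out, which kept 8262 of 8466 control and 7913 of 7999 serine/glycine-free barcodes (161332426 and 157234945 UMIs before filtering). TCR and antibody receptor genes (660) were left out of class totals. UMIs were summed per class and library. A gene was compared between diets with at least 30 UMIs in 1 library and was past the fold at a log2 ratio of CPM + 5 of 1 or more in size, without a test, since each diet had 1 library. Intervals were exact Poisson, Clopper-Pearson or conditional binomial at the 95% level. Thinning drew 1000 UMIs per cell without replacement (fixed seeds, with separate draws for sums and for shares of cells) and left out shallower cells (4 control and 2 serine/glycine-free CD8, 2 and 1 CD4, 25 and 18 macrophages, 2 and 2 tumour cells). No doublet caller was run, and doublets were treated by leaving out T cell barcodes with Krt20 or C1q.

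The genes named were all 9 members, of each pathway list up to 4 genes per class with the largest log2 ratio past the fold, and the 3 genes nearest to each member of at least 100 UMIs among genes of at least 50 CPM in a class. The members and lists were chosen with earlier results of these data known. The alternatives were other cell filters, class cuts, depth weights, scalings, pseudocounts, folds and clone weights. All T cells as 1 class, the Pdcd1 and Foxp3 splits and the diets within them without barcodes holding Krt20 or C1q, and the Ncr1, Ccr7 and Flt3 subsets were added after seeing the data. The summing and calling were tested on simulated counts. Analyses used Python 3.11.15, numpy 2.4.6, scipy 1.17.1 and pandas 2.3.3. Promoter sequence came from RefSeq on GRCm38.p6, and gene positions are on GRCm38.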

Additional observations from a re-analysis of the deposited data

Results flagged for a closer look

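In summed UMIs Cd40 and Tnfsf9 went in opposite directions between the diets in macrophages and in tumour cells. The Cd40 ratio, serine/glycine-free over control, was 1.55 in macrophages and 0.533 in tumour cells, the latter from 30 and 17 UMIs. The Tnfsf9 ratio was 1.27 in macrophages and 0.792 in tumour cells. With 1 library per diet the difference between these ratios was not tested.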

How the results depend on the processing

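No paired analysis was possible because each diet had 1 library and the labels carry no replicate numbers. Of the results that answer a comparison, 49 values under alternatives moved by less than the counting interval or stayed within 1.5 times the count, and 19 moved. Among these only the Car9 ratios could change direction, and none did. Of the other values, mostly ratios of single members, 185 stayed and 22 moved. Only members past the fold could be labelled as changed in sign, and none was. That label leaves out Tnfrsf9 in CD4 T cells, short of the fold, whose ratio went from 1.52 to 0.778 after thinning. The 2 CD8 members past the fold became 1 after thinning to 1000 UMIs, where Tnfrsf9 was left. They became 1 without the largest TRB clone and 1 with a mean per clone, where Cd28 was left. The 2 CD4 members became 0 after thinning, which left only 250 genes to compare. In macrophages the count of 0 became 1 without the 2% of cells with the most UMIs, 1 with scaling by the median ratio, 1 with a pseudocount of 1 CPM, 1 with C1q of at least 0.2% and 2 at a log2 ratio of 0.5. In tumour cells 0 became 1 at a log2 ratio of 0.5. The Tnfrsf9 ratio by Car9 was 3.98 (control) and 3.71 (serine/glycine-free) as a mean over cells, 2.96 and 2.94 with Car9 of at least 1, and 5.56 and 3.86 with at least 5. It was also 3.22 in control cells with Krt20 of at least 2, and on the serine/glycine-free diet 3.57 after thinning and 3.64 at middle depth. Apart from the construction of each alternative, the cause was not tested. Depth limits the CD4 class most, where 3 counts make 6.85 and 13.3 CPM.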

Other observations

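Outside the macrophages, of which 32.9% and 43.8% had a Cd40 UMI, Cd40 was detected in 31.4% of the other Ptprc-positive cells on the control diet, 123 of 392, and in 15.0% on the serine/glycine-free diet, 54 of 361. Among other Ptprc-positive cells with a Flt3 UMI, a gene of dendritic cells, Cd40 was at 497 CPM (38 of the 310 UMIs of its class) in 9 control and 37.4 CPM in 29 serine/glycine-free cells. In cells with an Ncr1 UMI, Tnfsf9 had 1 UMI in 15 control and 14 UMIs in 122 serine/glycine-free cells. These subsets were chosen after the values were seen.

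Within serine/glycine-free CD8 T cells, 7 of the 9 Cd40lg UMIs lay in the 23 cells whose TRB chain was seen once, at 46.6 CPM, against 1 UMI in the largest clone and 1 in the other repeated chains. In tumour cells the top 1 in 10 cells by Tnfrsf9 UMIs (412 and 461 cells) held 46.5% and 51.9% of the Tnfrsf9 UMIs, and the highest cell had 40 and 61.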
